A study of Rattus norvegicus with 24 samples.

Results

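The effect of G1, the oat beta-glucan of high molecular weight, on gene expression in rat blood was measured on 16 arrays. These were the 8 arrays of rats fed the G1 diet and the 8 arrays of rats fed the control diet (G0), chosen by the diet in the sample titles from 24 arrays in all. The rats were male Sprague Dawley rats, 8 weeks old, fed for 6 weeks, and each array held RNA from peripheral blood cells of 1 rat against a common reference, a pool of blood RNA that the labels trace to all rats of the experiment and the study's methods to 3 samples of each group, none of which was hybridised on its own. In each diet 4 rats had received repeated injections of LPS (10 mg/kg), the lipopolysaccharide of bacterial outer membranes, into the tail vein to induce enteritis, and 4 had received saline. The groups were C-G0 (control diet, no LPS), C-G1 (G1 diet, no LPS), LPS-G0 and LPS-G1, with n = 4 arrays each. All rats ate the same semi-synthetic diet apart from the beta-glucan, so the G0 rats are the controls of the diet and not untreated animals. The titles placed 4 arrays in LPS-G0, although a second label field of 2 of them, replicates 3 and 4, read control. The question was which genes changed alike on the G1 diet with and without LPS.

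Beta-glucans of cereals are fibres that mammals do not digest. They reach the immune system through the gut, where pattern recognition receptors such as dectin-1 (Clec7a) and complement receptor 3 (the product of Itgam with Itgb2) bind beta-glucans and signal through the kinase Syk. Cereal beta-glucans are also known for lowering blood cholesterol, since they bind bile acids in the gut. Whole blood RNA holds transcripts of leukocytes, platelets and red cell precursors, in rodents with much RNA of reticulocytes, the youngest red cells in the circulation. On such arrays fewer cells of a type and less RNA per cell cannot be told apart.

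Each value was read from a designed probe of 60 bases, and the 4 probes with lower signal on the G1 diet that recur through the results are shown for reference, in the 5′ to 3′ direction of the transcript. All of each probe is hybridised, so no part is in capitals. Positions follow the design of the array (build rn4), and those of Ube2c and Xpo7 span more than 60 bases, so their probes are not 1 unbroken stretch there.
Tpx2, rn4 chr3:143232410-143232469, plus strand: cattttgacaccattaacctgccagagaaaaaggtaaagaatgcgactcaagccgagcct
Ube2c, rn4 chr3:155802226-155802557, plus strand: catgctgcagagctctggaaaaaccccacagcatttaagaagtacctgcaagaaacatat
Dmtn, rn4 chr15:51005207-51005266, minus strand: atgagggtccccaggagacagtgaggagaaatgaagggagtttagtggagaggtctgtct
Xpo7, rn4 chr15:51076695-51081093, minus strand: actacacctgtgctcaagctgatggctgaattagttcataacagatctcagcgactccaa

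Values are log2 ratios of the rat RNA over the reference. The sample labels give Cy3 for the rat RNA and the study's methods give Cy5, so every sign below follows the labels and would turn if the methods held. Over the 7177 probes above background on all 16 arrays, the median SD between rats of a group was 0.344 in the Cy3 channel and 0.183 in Cy5 (log2 signal), and it was larger in Cy3 for 96.1% of them. An unadjusted p under 0.05 for the diet was reached by 2518 of those probes in Cy3 and 183 in Cy5. A common reference is the same RNA on every array, so on these measures the direction by the labels was taken as the likely one. The arrays lay on 3 slides, with 2 G0 and 1 G1 array of each LPS status on slide 1, 1 and 2 on slide 2, and 1 and 1 on slide 3. C-G0 replicate 1 and C-G1 replicate 2 stood apart from the other arrays, at -57.3 and 67.9 on the first principal component (46.2% of the variance, where the others lay between -41.8 and 25.9). Depth has no meaning for arrays, whose number sets the precision here, and between 7786 and 15385 of 30367 probes were well above background in Cy3.

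On the G1 diet more probes fell than rose. Of 10561 probes tested, 2190 (20.7%) differed between the diets at an adjusted p under 0.05, of which 614 (5.81%) were higher and 1576 (14.9%) lower on G1 (limma, Benjamini-Hochberg over all probes tested). Most changes were small: the median size among the 2190 was 0.59 on the log2 scale, and 70 probes (0.663%) changed at least 2-fold, 21 (0.199%) higher and 49 (0.464%) lower. The called probes stood for 1601 genes with a symbol and 1 sign in both LPS groups. At an unadjusted p under 0.05 there were 4555 probes (43.1%), 2072 higher (19.6%) and 2483 lower (23.5%), and the median change over all probes tested was 0.06.

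The number of called probes rested on single arrays and on the slide. With slide as a block in the model 0 probes passed (0%; smallest adjusted p 0.0638 by limma), while 2298 (21.8%) passed an adjusted p under 0.10 and 3628 (34.4%) an unadjusted p under 0.05, and 2167 of the 2190 kept their sign within all 3 slides. When a single array was left out, the count dropped to 2 for C-G0 replicate 1 and to 1 each for LPS-G0 replicate 1 and for replicates 2 and 4 of LPS-G1. It was 815 and 699 for replicates 2 and 4 of LPS-G0, 1075 and 1396 for replicates 2 and 3 of C-G1, 1384 for replicate 3 of LPS-G1 and 3401 for replicate 4 of C-G0. When both LPS-G0 arrays whose labels conflict were left out, it was 0. In these fits, which share most arrays, all 2190 probes kept their direction. The probes were chosen by their change on the same arrays, so a direction kept here or within slides is a description and no independent support.

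The diet changes measured without LPS and with LPS came from different rats, and most probes had the same sign in both. Taken alone, neither stratum held a probe at an adjusted p under 0.05 by limma (0% each; smallest adjusted p 0.125 without and 0.0698 with LPS), and 2698 (25.5%) and 2383 (22.6%) reached an unadjusted p under 0.05. Of the 2698 probes from the rats without LPS, 2508 (93%) had the same sign in the LPS rats, and of the 2383 from the LPS rats 2235 (93.8%) had the same sign in the rats without LPS. Across all 10561 probes 79% had the same sign and the changes correlated with r = 0.68, as a description across probes, which are no independent replicates and share slides and the reference pool. With slide as a block r was 0.61, and without both arrays that stood apart it was 0.26. Within a slide r was 0.30 on slide 1, 0.47 on slide 2 and 0.01 on slide 3, where the C-G1 and C-G0 arrays differed little (median size 0.15). Between arrays that share no slide, r was 0.57 (74.8% of probes of the same sign) for the change without LPS on slides 1 and 2 against that with LPS on slide 3. It was 0.11 (57.4%) for the change with LPS on slides 1 and 2 against that without LPS on slide 3.

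**Figure D1:**
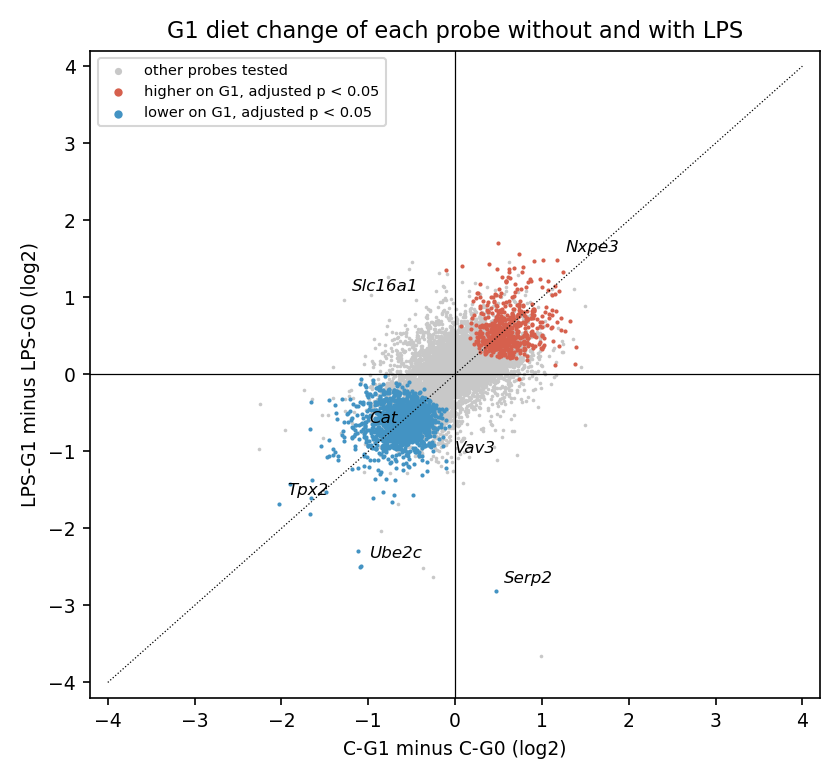
Each point is 1 of 10561 probes, with the G1 diet change without LPS on the x axis and with LPS on the y axis, both in log2 units; red and blue points passed an adjusted p under 0.05 in the pooled contrast and the dotted line marks equal change. Nearly all called probes lie in the quadrants of equal sign, and Serp2, lower with LPS and not without, lies outside them.

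A probe was counted as moving alike when it was called in the pooled contrast, had the same sign in both strata, had a smaller change of at least 0.5 times the larger, and an unadjusted p of at least 0.05 for the difference. This held for 1809 probes (17.1%), 505 higher (4.78%) and 1304 lower (12.3%). Of the other called probes 3 had opposite signs. The test of the difference itself, the interaction of diet with LPS, called 0 probes (0%; smallest adjusted p 0.499 by limma) and 303 (2.87%) at an unadjusted p under 0.05. That last count was 2009 with array weights and 1644 without both arrays that stood apart. That test does not show equal change: the 95% interval of the difference reached 0.66 log2 units to either side at the median probe. In 193 of the probes moving alike (1.83%) the 4 arrays of each diet did not overlap in either stratum. Over all probes tested, arrays of the diets did not overlap for 747 (7.07%) without LPS, 2272 (21.5%) with LPS, and 209 (1.98%) in both in the same direction.

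The 12 largest declines included 3 mitotic genes and 2 of the erythroid list, beside transporters and other genes. Tpx2, which activates the mitotic kinase Aurora A on the spindle, had log2 ratios of 0.82, 0.11, 0.51 and 0.44 on the C-G0 arrays and -0.37, -2.54, -3.43 and 0.08 on the C-G1 arrays. With LPS it had 1.09, 0.92, 0.38 and 0.46 on LPS-G0 and 0.14, -3.10, -0.42 and -0.49 on LPS-G1. Every G1 array was below every G0 array of its stratum, and 3 G1 arrays, all on slide 2, were far below the rest. The pooled change was -1.86 ± 0.48 (SE; 3.62-fold lower, adjusted p = 0.0275 by limma).

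Ube2c, the ubiquitin conjugating enzyme of the anaphase promoting complex, fell by 1.79 on the log2 scale ± 0.33 (SE, adjusted p = 0.0275 by limma). Its ratios were 0.48, -0.07, -0.23 and 0.38 on C-G0 and -0.27, -2.10, -1.85 and 0.42 on C-G1, which overlap. With LPS they were 1.12, -0.02, 1.11 and 1.21 on LPS-G0 and -0.78, -2.25, -1.62 and -1.92 on LPS-G1, which do not. The change was -1.09 without and -2.50 with LPS, and the 95% interval of the difference ran from -2.81 to -0.0025 (unadjusted p = 0.0496, adjusted p = 0.999 by limma), so Ube2c was not counted as moving alike.

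The other genes among the 12 largest declines were Kif18b, a mitotic kinesin (-1.75), Xpo7, a nuclear exportin (-1.67), Nprl3, a subunit of the GATOR complex that restrains mTOR signalling (-1.63), Bpifa2, a secreted protein of saliva (-1.50), Dmtn, the actin bundling protein dematin of the red cell membrane (-1.28), Slc43a1, an amino acid transporter (-1.23), Gypc, glycophorin C (-1.23), Rab3il1 (-1.21), Slc6a9, a glycine transporter (-1.21), and Fhdc1, a formin (-1.19). Their adjusted p-values lay between 0.0275 and 0.0400 (limma). Of the 12 genes, 6 (Tpx2, Kif18b, Xpo7, Bpifa2, Dmtn and Slc6a9) were detected on all 4 arrays of a G0 group and of no G1 group, so they entered the test only through the diet where they were higher, and their p-values support nothing. The same held for 138 of the 1576 probes called lower and 206 of the 614 called higher. Xpo7 had 1.37, 0.20, 0.35 and 0.00 on C-G0 and -0.05, -3.39, -2.55 and 0.29 on C-G1, and 0.80, 0.75, 0.60 and 0.71 on LPS-G0 and 0.08, -3.03, -0.17 and 0.28 on LPS-G1. The LPS groups did not overlap, while C-G1 replicate 4 lay among the C-G0 arrays. A second Xpo7 probe changed by -1.51 (adjusted p = 0.0277, limma). In all 12 genes the decline was largest on slide 2, and all 12 were lower on G1 within each of the 3 slides. This is a description, since the 12 were chosen by their change over the same slides.

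**Figure D2:**
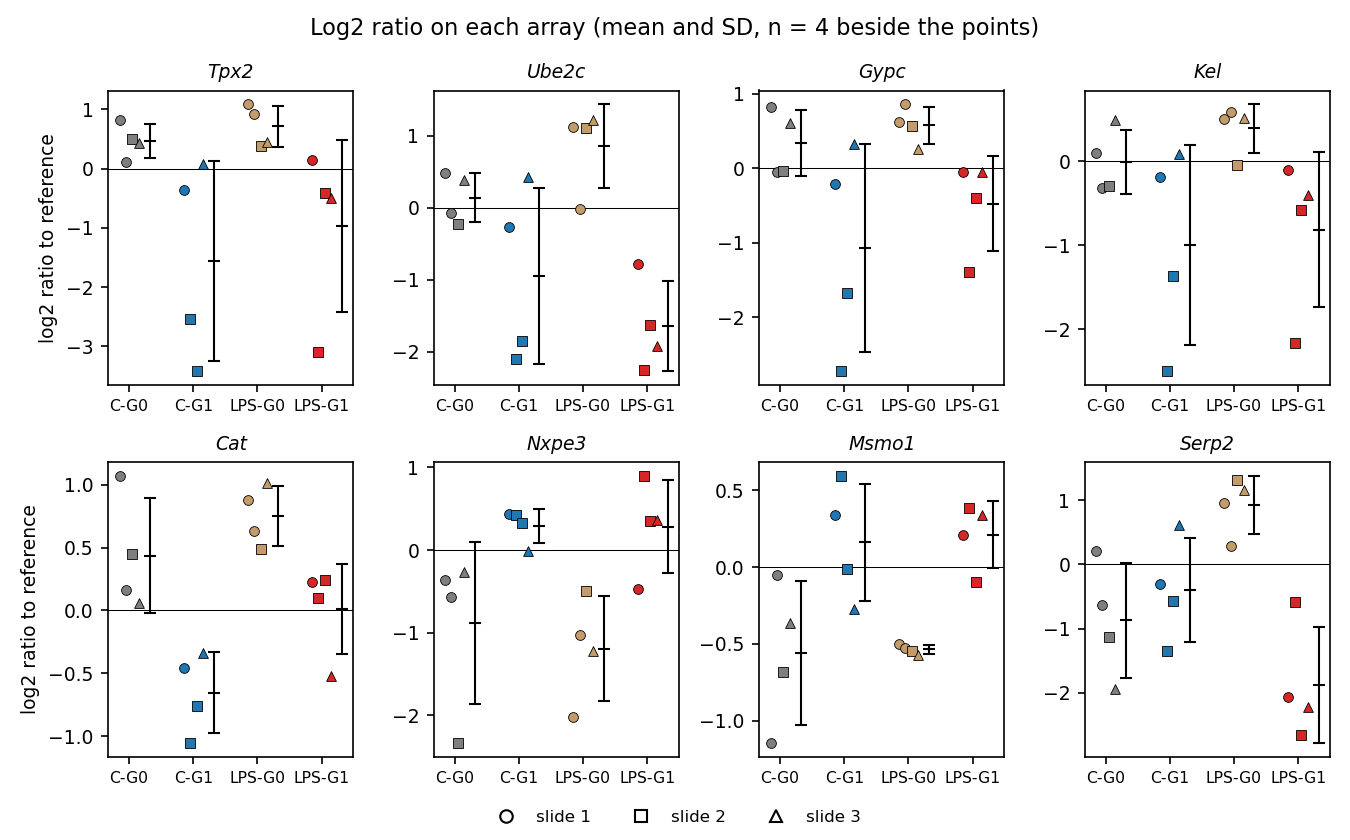
Log2 ratio to the reference (y axis) on each of the 16 arrays for 8 genes, by group (x axis); circles, squares and triangles are slides 1, 2 and 3, and the bar beside the points is the mean with the SD (n = 4). Tpx2, Cat and Nxpe3 show no overlap of the diets within either stratum, and the lowest Tpx2, Gypc and Kel values are squares of slide 2.

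Erythroid genes were the list with the most declines. Of 34 erythroid markers tested 19 fell (14.9% of all probes did), 0 rose and 15 did not pass, with a median change of -0.74 against 0.06 over all probes, and 29 of the 34 were below 0 in both strata (median -0.94 without and -0.57 with LPS). The 19 included membrane and skeleton genes (Gypc -1.23, Dmtn -1.28, Kel -1.10, Epb42 -0.97, Rhd -0.80, Add2 -0.69, Tmod1 -0.62, Slc4a1 -0.61), the erythroid transcription factors Klf1 (-0.73) and Gata1 (-0.59), the heme enzymes Urod (-0.79) and Alad (-0.75), the carbonic anhydrase Car1 (-1.05), and Trim10 (-1.16), Hemgn (-1.04), Trim58 (-0.96), Tspo2 (-0.89) and the mitochondrial iron carrier Slc25a37 (-0.72). The globins Hbb (0.12), Hbb-b1 (0.02) and Hba-a1 (-0.03) and the first heme enzyme Alas2 (-0.08) did not pass, with adjusted p-values of 0.550, 0.901, 0.827 and 0.633 (limma). Ppox, a heme enzyme, had -0.94 and Ahsp, which stabilises alpha globin, -0.91, also without passing. On these arrays no probe was flagged as saturated in Cy3 on most of its spots, with outlier spots left out. Whether the signal of bright probes was compressed was not tested. Of the 19 genes, 14 were counted as moving alike, while Slc4a1 fell by 1.09 without LPS and had -0.12 with LPS (unadjusted p of the difference 0.0177, adjusted p = 0.999 by limma).

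Kel, a blood group protein of the red cell membrane, had 0.10, -0.32, -0.30 and 0.49 on C-G0 and -0.19, -2.51, -1.37 and 0.09 on C-G1. It had 0.50, 0.59, -0.04 and 0.52 on LPS-G0 and -0.10, -2.16, -0.59 and -0.41 on LPS-G1. The groups overlapped without LPS and not with LPS. The mean ratio of the 34 genes was 0.43, -0.19, 0.02 and 0.14 on C-G0, -0.22, -1.58, -0.72 and -0.16 on C-G1, 0.34, 0.27, 0.18 and 0.21 on LPS-G0 and -0.11, -0.77, -0.11 and -0.11 on LPS-G1. The 3 lowest arrays, C-G1 replicates 2 and 3 and LPS-G1 replicate 2, all lay on slide 2, while the G0 arrays of that slide were at 0.02 and 0.18. The median change of the list was -0.37 within slide 1, -1.14 within slide 2, -0.31 within slide 3 and -0.64 with slide as a block, where 0 of the 34 passed and 24 were lower at an unadjusted p under 0.05. Leaving out C-G0 replicate 1, LPS-G0 replicate 1, or replicate 2 or 4 of LPS-G1 also left 0, with medians of -0.74, -0.72, -0.66 and -0.78. Counts were 6 and 8 without LPS-G0 replicates 2 and 4, 12 without C-G1 replicate 2 or 3 and 6 without both arrays that stood apart.

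For reference, the 250 bases before the RefSeq start (GRCr8) of 3 erythroid genes that fell are shown. They were chosen as the largest declines among erythroid genes whose promoter holds the GATA factor motif AGATAA or, on the other strand, TTATCT, which is in capitals.
Trim10, GRCr8 chr20:1703470-1703719, minus strand: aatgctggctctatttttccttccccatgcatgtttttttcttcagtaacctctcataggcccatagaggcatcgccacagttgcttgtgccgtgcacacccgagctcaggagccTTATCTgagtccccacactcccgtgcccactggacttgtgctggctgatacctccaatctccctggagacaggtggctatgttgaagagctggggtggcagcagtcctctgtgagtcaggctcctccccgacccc
Hemgn, GRCr8 chr5:65485822-65486071, minus strand: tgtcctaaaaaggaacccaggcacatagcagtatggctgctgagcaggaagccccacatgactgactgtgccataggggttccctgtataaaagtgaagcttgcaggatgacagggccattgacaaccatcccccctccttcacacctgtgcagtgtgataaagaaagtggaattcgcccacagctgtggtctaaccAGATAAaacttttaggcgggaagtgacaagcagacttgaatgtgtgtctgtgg
Trim58, GRCr8 chr10:43523154-43523403, plus strand: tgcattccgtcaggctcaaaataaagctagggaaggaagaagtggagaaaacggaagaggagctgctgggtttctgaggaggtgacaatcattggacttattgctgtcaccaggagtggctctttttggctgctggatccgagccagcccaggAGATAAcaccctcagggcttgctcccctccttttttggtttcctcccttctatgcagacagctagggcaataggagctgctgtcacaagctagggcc

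The motif was present in 10.3% of the 33469 promoters in the table over the same window. A promoter was matched for 26 of the 34 erythroid genes (76.5%), and 9 of these held it. They were 6 of the 14 matched genes that fell and 3 of the 12 that did not pass, and whether these differ was not tested. With under 80% matched, the share over the list was not compared with that of all promoters. A match of these letters is a description and not a binding site.

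Of 42 genes of cell division on the array 17 were tested, of which 8 fell (14.9% of all probes did), 1 rose and 8 did not pass, with a median change of -0.59. Of the 9 that passed, 3 (Tpx2, Nusap1 and Cdk1) entered the test only through the control diet. Besides Tpx2 and Ube2c, Tyms (thymidylate synthase, -1.14), Tk1 (thymidine kinase, -0.89), Nusap1 (-0.86), the proliferation marker Mki67 (-0.83), Birc5 (survivin, -0.60) and Cdk1 (-0.45) fell. Mcm3, a subunit of the replicative helicase, rose by 0.55 (adjusted p = 0.0442, limma), and Mcm4, Mcm7 and Pcna had 0.15, 0.18 and 0.33 without passing. The list mean was lowest on the same 3 arrays of slide 2 (-1.05, -0.65 and -0.76), as for the erythroid genes, and the part of the slide in either list was not tested. With slide as a block 0 of the 17 passed. The same held on leaving out C-G0 replicate 1, LPS-G0 replicate 1, or replicate 2 or 4 of LPS-G1. The count of declines was 3 without C-G1 replicate 2 or LPS-G0 replicate 2, 4 without C-G1 replicate 3 or LPS-G0 replicate 4, 5 without LPS-G1 replicate 3 and 1 without both arrays that stood apart.

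**Figure D3:**
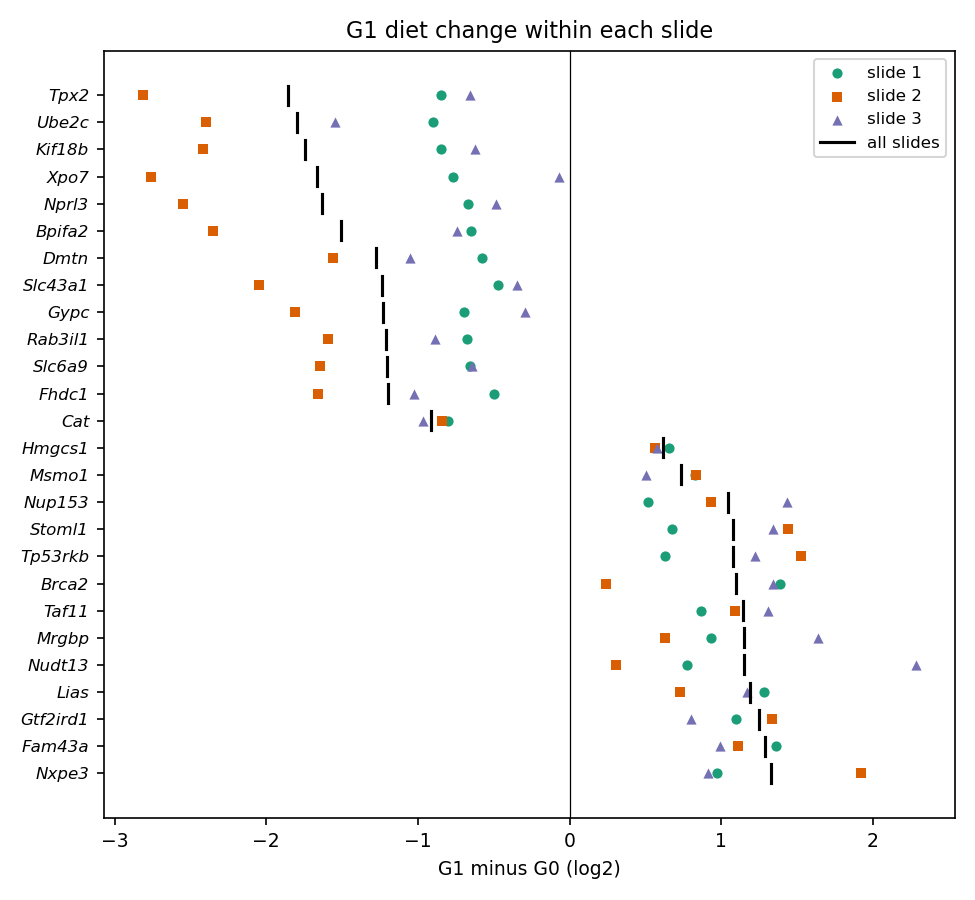
G1 minus G0 (log2, x axis) within slide 1, 2 and 3 (circles, squares, triangles) and over all slides (black bar) for genes with the largest pooled change in each direction and for Cat, Hmgcs1 and Msmo1 (y axis). All genes plotted keep their side of 0 on every slide, and the 12 largest declines are largest on slide 2.

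Other blood cell lists held at most 2 calls each, where 5.81% of all probes rose and 14.9% fell. Of 18 T cell markers Themis alone passed (-0.41), with a list median of 0.13, and 0 of 9 B cell markers (median 0.23) and 0 of 8 neutrophil markers (0.02) passed (limma, with 4 and 1 at an unadjusted p under 0.05). Of 14 cytotoxic T and NK cell markers Tbx21 (-0.48) and Klrk1 (-0.36) fell, a share near that of all probes. The median of that list was 0.14. It was 0.40 without LPS, with 3 of 14 genes below 0, and -0.26 with LPS, with 14 of 14 below 0. Of 8 monocyte markers Lyz2, lysozyme, rose (0.70, list median 0.30), and of 14 platelet markers Gp5 fell (-0.39, list median -0.08). A second Klrk1 probe had 0.10 (adjusted p = 0.673, limma). The Tbx21 probe had a mean Cy3 signal of 15.7 (log2), against a median of 8.55 over all probes tested. Which transcripts it reads was not tested. Lists of cells outside the blood held 2 declines each: Mb (-0.59) and Actc1 (-0.52) of 3 heart muscle genes tested of 14, and Flt1 (-0.80) and Robo4 (-0.61) of 6 endothelial genes tested of 10. Defining heart genes such as Myh6, Tnnt2 and Tnni3 did not pass the detection filter.

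Catalase was the antioxidant enzyme that changed. Cat, which breaks down hydrogen peroxide and is abundant in red cells, had 1.07, 0.16, 0.45 and 0.06 on C-G0 and -0.46, -1.05, -0.76 and -0.34 on C-G1, and 0.88, 0.63, 0.49 and 1.01 on LPS-G0 and 0.22, 0.10, 0.24 and -0.52 on LPS-G1. The diets did not overlap in either stratum. The pooled change was -0.92 ± 0.17 (SE; 1.89-fold lower, adjusted p = 0.0275 by limma), and it was -0.80, -0.84 and -0.96 within slides 1, 2 and 3. Among the other antioxidant enzymes, 20 tested in all, none passed, where 14.9% of all probes fell. Prdx2 had -0.46 (adjusted p = 0.0660) and Nqo1 -0.56 (0.0713, limma).

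Of 13 genes of cholesterol synthesis and uptake tested, 5 rose (5.81% of all probes did), 1 fell and 7 did not pass, with a median of 0.36, and the 6 called were counted as moving alike. Msmo1, the sterol methyl oxidase, had -1.15, -0.05, -0.68 and -0.37 on C-G0, 0.34, 0.60, -0.01 and -0.27 on C-G1, -0.50, -0.52, -0.54 and -0.57 on LPS-G0 and 0.21, 0.39, -0.10 and 0.34 on LPS-G1. All LPS-G1 arrays were above all LPS-G0 arrays, and the groups without LPS overlapped. It rose by 0.74 ± 0.16 (SE, adjusted p = 0.0275 by limma), by 0.72 without and 0.75 with LPS. Hmgcs1, which makes HMG-CoA, rose by 0.61, and by 0.66, 0.57 and 0.57 within slides 1, 2 and 3. Pmvk, phosphomevalonate kinase (0.64), Stard4, a cholesterol carrier (0.53), and Srebf2, the transcription factor of the pathway (0.40), rose, and Acat2, acetyl-CoA acetyltransferase, fell (-0.44). Insig1, Idi1 and Fdps had 0.44, 0.36 and -0.30 without passing. With slide as a block 0 of the 13 genes passed.

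MHC class II genes, which present antigen to helper T cells, rose in 3 of 8 tested, where 5.81% of all probes rose, and fell in none (median 0.38). Cd74, the invariant chain, had -1.40, 0.39, 0.25 and 0.32 on C-G0 and 0.35, 0.69, 0.34 and 0.27 on C-G1, so that C-G0 replicate 1 was far below and the other C-G0 arrays lay among the C-G1 arrays. With LPS it had -0.48, -0.84, -0.42 and -0.52 on LPS-G0 and 0.08, 0.61, -0.02 and 0.28 on LPS-G1, which do not overlap. Cd74 rose by 0.66, RT1-Db1 by 0.59 and RT1-DMb by 0.41, with adjusted p-values of 0.0404, 0.0323 and 0.0373 (limma). With slide as a block 0 of the 8 genes passed. RT1-Da had 0.59 with an adjusted p of 0.0612, and the class II transactivator Ciita 0.18, with -0.13 without and 0.49 with LPS.

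The lists of receptor and signalling genes held 1 to 3 calls each, where 5.81% of all probes rose and 14.9% fell. Of 13 genes of beta-glucan receptors and Syk-Card9 signalling Syk rose (0.42, adjusted p = 0.0427) and Itgam fell (-0.56, adjusted p = 0.0382, limma), both alike in the strata, but a second Syk probe had -0.10. The dectin-1 gene Clec7a had -0.03, with -0.33 without and 0.26 with LPS, and Itgb2 0.25, with 0.58 and -0.08 (unadjusted p of the difference 0.0144, adjusted p = 0.999). Of 11 genes of the Toll-like receptor pathway, the route by which LPS signals, Irak3, an inhibitor of that route, rose by 0.57 and the adaptor Myd88 by 0.46. Tlr2 and Tlr6 had 0.34 and 0.33 (adjusted p = 0.0515 and 0.0690), 9 of the 11 were above 0 in both strata and 8 were higher at an unadjusted p under 0.05 (19.6% of all probes were), with a median of 0.34. Among 10 NF-kB genes the inhibitors moved in both directions, with Nfkbie at 0.67, Nfkbid at -0.59 and Nfkbib at -0.50, all called, Nfkbie having entered the test only through the G1 diet. Of 19 inflammatory cytokines and receptors Il6r rose (0.57), without overlap of the diets in either stratum, and 18 did not pass, among them Tnf (0.51) and Il1b (0.40).

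The remaining lists held between 1 and 8 calls each, where 5.81% of all probes rose and 14.9% fell. Of 75 cytosolic ribosomal proteins 4 rose (Rpl5 0.60, Rpl36a 0.56, Rpl3 0.49 and Rpl27 0.46) and 68 were above 0 in both strata, with a median of 0.27. The share of rises was near the 5.81% of all probes for this list and for the oxidative phosphorylation and proteasome lists, and these counts of calls are no result about the lists. At an unadjusted p under 0.05 (limma), 35 of 75 ribosomal, 14 of 60 oxidative phosphorylation and 14 of 40 proteasome genes were higher (19.6% of all probes were). The ribosomal mean was -0.61 on C-G0 replicate 1 and 0.64 on C-G1 replicate 2, and between 0.00 and 0.15 on the other arrays without LPS. Of 24 interferon-stimulated genes Rsad2 (-0.78), Cmpk2 (-0.70) and Isg20 (-0.54) fell, while the list median was 0.13 and 13 were above 0 in both strata. That share of declines was near the share of all probes and is no result about the list. Of 12 immediate-early genes Ier3 (-0.73), Fosb (-0.70) and Jund (-0.56) fell against a median of 0.22. In fatty acid metabolism Echs1 (0.70), Cpt1a (0.56) and Hadh (0.48) were among 4 of 21 that rose, Cpt1a having entered only through the G1 diet, and 2 fell. In autophagy 3 of 26 rose, among them Atg13 (0.91) and Atg10 (0.90), which entered the test only through the G1 diet and were not counted as moving alike, and 5 fell, among them Atg9a (-0.64) and Nbr1 (-0.60), but a second Atg9a probe had 0.18 (adjusted p = 0.256). Of 60 subunits of oxidative phosphorylation 4 rose and 2 fell, Ndufs1 having 0.57 and Ndufs5 0.47 against -0.51 for Ndufa11 and -0.52 for Uqcr11, whose other probes had 0.15 and -0.01. Of 40 proteasome subunits Psmc1 (0.43) and Psmb9 (0.42) rose and Psmd11 (-0.44) fell. The clock gene Npas2 fell (-0.74) and Ddit4, which glucocorticoids induce, rose (0.69), as the only calls among 5 and 8 genes tested.

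**Figure D4:**
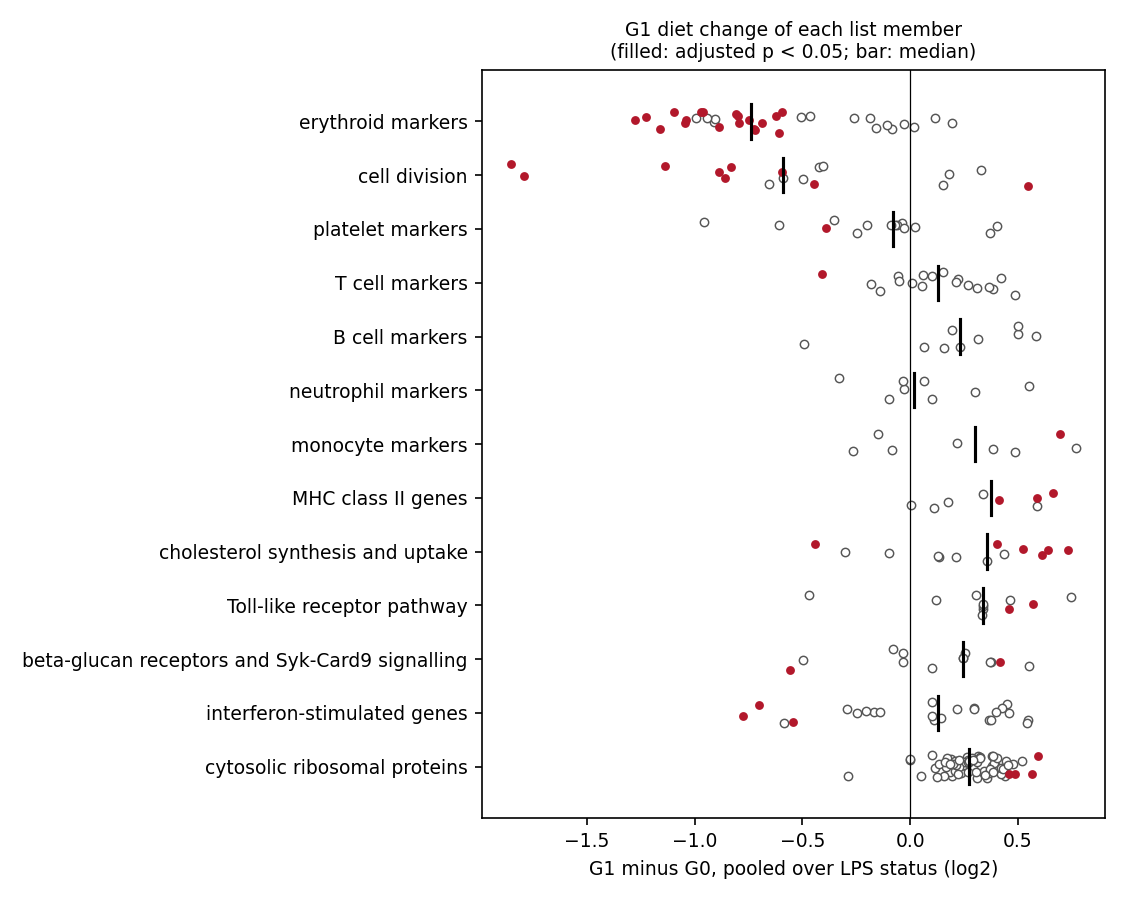
Pooled G1 diet change (log2, x axis) of every tested member of 13 gene lists (y axis); filled points passed an adjusted p under 0.05, open points did not, and the bar is the list median. Erythroid and cell division genes lie mostly below 0, at medians of -0.74 and -0.59, and the ribosomal protein genes mostly above 0, at 0.27.

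**Figure D5:**
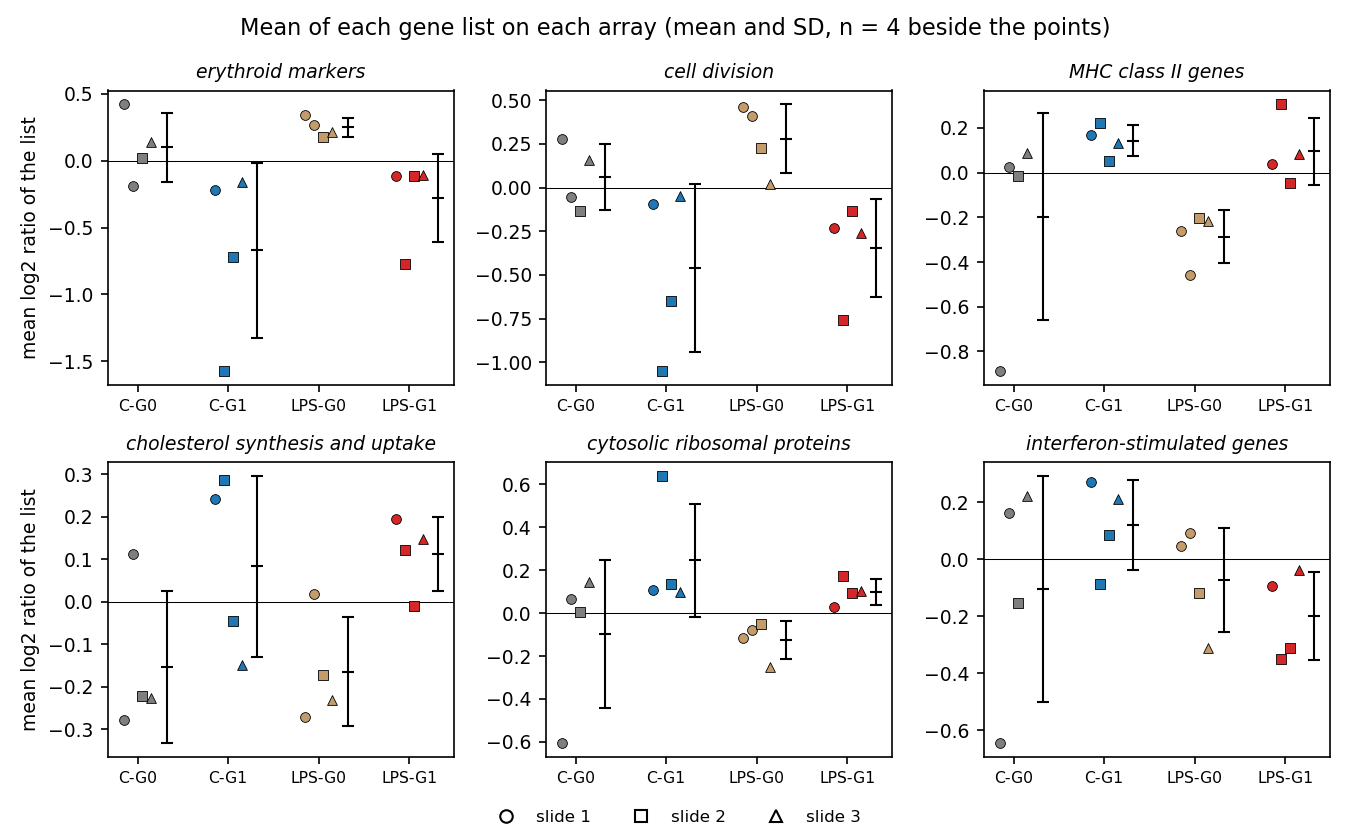
Mean log2 ratio (y axis) of 6 gene lists on each of the 16 arrays by group (x axis), with slides as circles, squares and triangles and the mean with SD (n = 4) beside the points. The lowest erythroid and cell division means are 3 squares of slide 2, and C-G0 replicate 1 is far below the other C-G0 arrays for MHC class II (-0.89) and ribosomal protein genes (-0.61).

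The 12 genes with the largest rises were dim on the control diet. Nxpe3 (1.33), Fam43a (1.29), the transcription factor Gtf2ird1 (1.25), the lipoic acid synthase Lias (1.19), Nudt13 (1.15), Mrgbp, a subunit of a histone acetyltransferase complex (1.15), Taf11, a subunit of the general transcription factor TFIID (1.15), the DNA repair gene Brca2 (1.1), Tp53rkb (1.08), Stoml1 (1.07) and the nuclear pore gene Nup153 (1.05) were among them and had adjusted p-values between 0.0275 and 0.0450 (limma). Each of the 12 was well above background on 1 to 4 of the 8 G0 arrays and on 6 to 8 of the 8 G1 arrays. A probe entered the test when all 4 arrays of any 1 group detected it, so a probe that passed through a G1 group alone had to be higher there. This was so for all 12 genes, whose p-values support nothing. Of all 21 probes that rose at least 2-fold, 0 were above background on all 16 arrays, against 18 of the 49 that fell. Restricted to the 7177 probes above background on all 16 arrays, the same test gave 525 higher and 1263 lower probes, and 20 of at least 2-fold.

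Nxpe3 had -0.36, -0.56, -2.34 and -0.26 on C-G0 and 0.43, 0.43, 0.32 and -0.01 on C-G1, and -2.03, -1.03, -0.50 and -1.22 on LPS-G0 and -0.47, 0.90, 0.35 and 0.36 on LPS-G1. The diets did not overlap in either stratum, as a description, since Nxpe3 was chosen as the largest rise. Fam43a had -3.24, 0.15, -0.67 and -0.43 on C-G0 and -0.03, 0.29, 0.39 and 0.12 on C-G1, which overlap, and it lay between -1.63 and -1.25 on LPS-G0 and between -0.33 and 0.12 on LPS-G1, which do not. Several of the genes with the largest rises, and Atg10 of the autophagy list, were not well above background on any LPS-G0 array. Their LPS-G1 signal was 2.93-fold higher for Brca2, 2.32-fold for Tp53rkb, 2.30-fold for Nup153, 2.27-fold for Atg10, 2.18-fold for Stoml1 and 1.91-fold for Gtf2ird1. In these values the LPS-G0 arrays were set no lower than the dimmest detected probe. An undetected signal can lie above that level, so the values are estimates and no lower bounds. The estimates are open to dye bias, as the dyes were not swapped, and they describe genes that had to be higher on G1 to enter the test. Of the 4 LPS-G1 arrays, 2 detected Gtf2ird1, 3 detected Nup153, Stoml1 and Atg10, and 4 detected Brca2 and Tp53rkb.

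The genes that differed most between the strata did not pass the test of the difference. Slc16a1, a lactate transporter, had 1.27, 0.38, 0.67 and 0.42 on C-G0 and -0.14, -0.88, -0.64 and -0.73 on C-G1, but -0.13, -1.17, 0.11 and -1.27 on LPS-G0 and 0.34, 0.27, 0.11 and 0.69 on LPS-G1. G1 arrays were thus lower without LPS (-1.28) and higher with LPS (0.97), a difference of 2.25 (95% interval 1.37 to 3.13, adjusted p = 0.499 by limma). Serp2 had 0.21, -0.64, -1.13 and -1.94 on C-G0 and -0.30, -1.35, -0.58 and 0.61 on C-G1, but 0.95, 0.29, 1.32 and 1.17 on LPS-G0 and -2.07, -0.58, -2.66 and -2.22 on LPS-G1. Its pooled change of -1.17 thus came from the LPS rats, where the diets did not overlap (difference -3.29, 95% interval -4.73 to -1.85, adjusted p = 0.864), and a second probe showed 0.99 without and -3.65 with LPS. Vav3, a signalling protein of leukocytes, had -0.10 without and -1.12 with LPS, and its second probe had 0.88 and 0.29, so the probes disagree. Chmp4b (-0.76 and 0.71) and Dhx58 (0.45 and -0.94) had opposite signs in the strata and did not pass in the pooled contrast (adjusted p = 0.914 and 0.268, limma).

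Among the 6 genes that the study chose for RT-PCR in the LPS rats on the G1 diet, a choice made on these arrays and so no independent evidence here, 4 could be tested. The study's RT-PCR on further rats was not analysed here. Tpx2 and Flt1 entered the test only through the control diet. Tpx2 and Flt1, a receptor of vascular endothelial growth factor, fell (-1.86 and -0.80) and were counted as moving alike. Slc27a2, a fatty acid transporter, had -0.37 without and -2.51 with LPS, and a pooled change of -1.44 with an adjusted p of 0.0601 (limma). Clcn3, a chloride channel, had -0.57 without and 0.54 with LPS, and its pooled change of -0.01 did not pass (adjusted p = 0.949, limma). Serpini2 and Fat2 did not pass the detection filter.

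In all, 87 genes were named by rule and 82 of these passed in the pooled contrast, of which 68 were counted as moving alike. Passing was a condition for being named, except for the genes with the smallest p of the difference and those chosen for RT-PCR. The largest changes also had to have the same sign in both strata, so these counts follow largely from the rule. Nxpe3, Tpx2, Cat, Robo4, Actc1, Il6r and Cmpk2 were the 7 of them whose diets did not overlap in either stratum. Of the 82, 23 entered the test only through the diet where they were higher, among them Nxpe3 and Tpx2, and with slide as a block none of the 82 passed by limma.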

How the data were processed

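RNA from peripheral blood of 16 rats, 1 rat per array, was hybridised against the pooled reference on Agilent rat arrays of 60-base probes. The authors scanned the slides and deposited Feature Extraction output with the log10 ratio (LogRatio, Cy5 over Cy3) and the intensity of each spot, background-subtracted and dye-normalized; the submitters' processing notes name version 10.7.3.1 and the file headers 10.10.1.1. The log10 ratios of the deposited series matrix were identical in all 1511424 values compared.

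The negative LogRatio was converted to log2, and spots of a probe were averaged without control spots and outlier flags (30367 probes). A probe was tested when every array of any group called it well above background in Cy3, which held for 10561, 7770 of them with a gene symbol (6869 genes). A model of 4 group means was fitted with limma 3.58.1 in R 4.3.3 (data.table package, version 1.17.8), with the G1 minus G0 contrast averaged over LPS status, each stratum alone and their difference as contrasts. P-values were adjusted by Benjamini-Hochberg over all probes tested at 0.05. The steps were tested on simulated data. For the genes named, the diet was also permuted exactly within LPS status, and within LPS status and slide; these values are not printed, since most genes were chosen by their change.

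Named were the 12 genes of largest pooled change in each direction (called, same sign in both strata), the 5 with the smallest p of the difference, up to 4 called members of each of 27 gene lists, and the genes the study chose for RT-PCR. Other list members are named after their values were seen. Members and lists were chosen with earlier results of these data known. Some genes that the rule names are not reported here. A gene with several probes counts by its brightest. The labels of the 4 arrays in each group were taken as separate rats, and replicate numbers were not used to pair the samples in the main model. Alternatives were the slide as a block, the replicate number as a block, an additive model, all 24 arrays, array weights, a variance trend, an unmoderated test, other filters, normexp background with loess, Aquantile, median centring, Cy3 alone and leaving out arrays. The G2 arrays entered only the fit of all 24 arrays.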

Additional observations from a re-analysis of the deposited data

Results flagged for a closer look

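In 21 of 348 groups of 4 arrays over the genes named, and in 8 of 108 groups over list means, 1 array lay far from the other 3 (Dixon's test), where chance gives about 1 in 20. Over the genes named, the array most often apart was LPS-G1 replicate 2, with 6 values. It had -3.55 for Kif18b, -3.03 for Xpo7, -3.19 for Nprl3, -1.38 for Rab3il1, -1.57 for Rsad2 and 0.44 for Syk. It was also apart at -0.77 for the erythroid list mean. Over the list means, the array most often apart was C-G0 replicate 1, with 4 values. C-G0 replicate 1 was apart at -1.40 for Cd74, -1.34 for Rpl36a, -1.06 for Il6r and 0.39 for Gp5, and in the list means of MHC class II (-0.89), B cell (-0.74), glucocorticoid-responsive (-0.48) and oxidative phosphorylation genes (-0.26). C-G1 replicate 2 was apart at -1.75 for Atg9a, -1.58 for Cmpk2, 0.78 for Chmp4b and 0.64 for the ribosomal protein list mean.

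Some other arrays were apart in 1 or 2 values each. These were Nxpe3 at -2.34 on C-G0 replicate 3, Ddit4 at -0.16 on C-G1 replicate 3, Rpl27 at -0.18 on LPS-G1 replicate 1, Il6r at 0.41 on LPS-G1 replicate 4, Kel at -0.041 on LPS-G0 replicate 3 and Rpl5 at -0.46 on LPS-G0 replicate 4. LPS-G0 replicate 2 was apart for Ube2c (-0.020) and Isg20 (0.78). The cholesterol list mean on C-G0 replicate 2 (0.11) and the circadian list mean on C-G0 replicate 4 (0.21) were apart too. The cause was not tested.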

How the results depend on the processing

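The number of arrays limits the precision: the median SE of the pooled change was 0.16 on the log2 scale. The pooled count of 2190 probes was 0 with slide as a fixed block, 0 with the conflicting LPS-G0 arrays left out, 0 with no filter on dim probes, 0 with the Cy3 channel alone, 1 with a filter on Cy5, 1056 with the unmoderated test of the methods' analysis of variance and 537 without both arrays that stood apart, an alternative chosen after seeing the data. Under these settings, in the same order, the count of probes moving alike (1809) was 0, 0, 0, 0, 1, 889 and 188, and the count of at least 2-fold (70) was 0, 0, 0, 0, 1, 23 and 7. Array weights gave 903 alike and 17 of at least 2-fold, normexp with loess gave 10 of at least 2-fold, and the filter on all 16 arrays gave 20. The G1 diet effect with LPS, at 0, had 2730 probes with array weights, 1875 without both arrays that stood apart, 3 with all 24 arrays, 1 with the filter on all 16 arrays and 1 with slide as a random block (also chosen after seeing the data), and the G1 diet effect without LPS had 3 with all 24 arrays. Leaving out 1 array gave 1 to 3401 probes pooled, 0 to 2377 alike, 1 to 142 of at least 2-fold, 0 to 645 without LPS and 0 to 609 with LPS. The difference between the strata stayed at 0 probes at an adjusted p under 0.05 throughout, but at an unadjusted p under 0.05 its 303 probes became 2009 with array weights and 1644 without both arrays that stood apart. The cause of these moves was not tested. The 2190 probes kept their sign in every setting over all slides that tested them (1409 of them under the filter on all 16 arrays), except 2188 with Cy3 alone, and 2167 had the same sign within all 3 slides. They were chosen by their change on these arrays, so the kept signs are a description.

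With the replicate block the pooled count was 3129, which held 2188 of the 2190, and the LPS rats alone had 4 probes. The deviations of same-numbered arrays correlated between -0.14 and 0.43, with a mean of 0.13. The mean was -0.05 for arrays of different number and 0.07 for those of different number on the same slide. The main model did not pair arrays by number, and whether equal numbers share a source of variation was not tested.

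Of the genes named, Chmp4b, near 0, reversed to 0.0091 with normexp and 0.22 with Cy3 alone and ran from -0.16 to 0.057 on leaving out 1 array, and Clcn3 from -0.12 to 0.053. All 82 called genes lost the call with slide as a fixed block, without the arrays of conflicting labels, with no filter, the Cy5 filter or Cy3 alone, and 59 lost it without both arrays that stood apart.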
